A study of Mus musculus with 17 samples.

Results

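The bile acid, sterol and xenobiotic nuclear receptors examined here were Nr5a2 (liver receptor homologue 1, LRH-1), Nr1h4 (the farnesoid X receptor, FXR), Nr0b2 (the small heterodimer partner, SHP), Nr1h3 (the liver X receptor alpha), Nr1i2 (the pregnane X receptor, PXR), Nr1i3 (the constitutive androstane receptor, CAR) and Hnf4a. They were chosen by gene name from the probe names of the array, with older names resolved, and not by their values. Of the 7 genes named, 6 had a probe and are described, out of 274 named genes on the array. Nr1h3 was not analysed here. Hnf4a carries its older name, Nr2a1, on the array.

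Nuclear receptors are a family of transcription regulators, many of which a small lipophilic ligand switches on. FXR senses bile acids in hepatocytes and induces SHP, a receptor without a DNA-binding domain that represses other receptors, LRH-1 among them, and through this loop bile acids restrain their own synthesis from cholesterol. PXR and CAR respond to drugs and other foreign compounds and to some bile acids and steroids, and they induce cytochrome P450 enzymes and transporters that clear them. HNF4A is a receptor on which much of hepatocyte gene expression depends, including genes of bile acid synthesis and apolipoproteins.

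Liver RNA of 10 mice of the Lean line and 10 of the Fat line was hybridised to 17 two-colour arrays of the Steroltalk v2 design, a focused array of cDNA probes for cholesterol, bile acid, drug and energy metabolism. Lean and Fat are inbred mouse lines that were bred for low and for high body fat from 1 base population, both on a background of CBA, JU and CFLP. Males of both lines were kept on maintenance chow and killed at the same adult age after a short fast. Each array held 1 Lean and 1 Fat mouse, whose RNA had been extracted together and matched for integrity, and 7 of the 10 pairs were hybridised a second time with the dyes Cy3 and Cy5 exchanged. A ratio is therefore Lean over Fat on the log2 scale, and the 10 pairs are the replicates. Each line was 1 inbred selected line, so selection for body fat and any other difference between the lines cannot be told apart. A change in the share of a cell type and in RNA per cell cannot be told apart in whole liver either.

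The hepatocyte markers Alb1, Apoa1, Apob and Fgb were above background in both channels on each of the 17 arrays. Their log2 ratios were all above 0, at 0.30 for Fgb (limma, p = 0.0248, adjusted p = 0.239), 0.20 for Apoa1, 0.11 for Apob and 0.082 for Alb1, with a median of 0.16 against 0.041 over all probes, and their part in the receptor ratios was not tested. Of the adipocyte markers, Adipoq was above background on 12 arrays in Lean and 11 in Fat, Lep on 4 and 5, and Retn on 3 and 3, and their log2 ratios lay between 0.014 and 0.021. The probes of Msr1, Vcam1, Cav1 and Nos3, markers of macrophages and endothelium, had log2 ratios between -0.058 and 0.11, and no gene of these marker lists passed the test. Between 34.9% and 78.8% of the 855 gene spots of an array were above background in both channels, where a spot counted as above background if its signal exceeded the local background by more than 2 SD of that background.

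The array of pair 2 with Lean in Cy3 stood apart from the rest. A patch of very bright background lay over 137 of its spots, 130 of them in 1 print block, where the local background of the Fat channel had a median of 64944 units against 340.0 over the whole array. For each of Nr5a2, Nr0b2 and Hnf4a, 1 of the 3 spots lay in this patch, and no spot of the other receptors did. The Nr5a2 spot in the patch had a log2 ratio of -1.34, against -0.0044 and 0.000056 for its other spots on that array. The Hnf4a spot in the patch had a ratio of 4.78, against 0.023 and 0.011, and the Nr0b2 spot a ratio of -1.41, against -0.043 and -0.064. Values of these 3 genes are therefore given with and without the spots in the patch, a choice made after the data had been seen.

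None of the 6 receptors passed the test for a difference between Lean and Fat mice at an adjusted p below 0.05, against 3.52% of all 284 gene probes, of which 2.82% were higher and 0.704% lower in Lean. The largest ratios in size were those of Nr1i3 and Nr1h4, on the side of lower levels in Lean, and of Nr5a2, on the side of higher levels in Lean. At an unadjusted p below 0.05 there was 1 receptor, Nr5a2, against 15.1% of all probes. Each test was limma's moderated test of the mean of the 10 pair ratios against 0, with Benjamini-Hochberg adjustment over all probes.

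**Figure D1:**
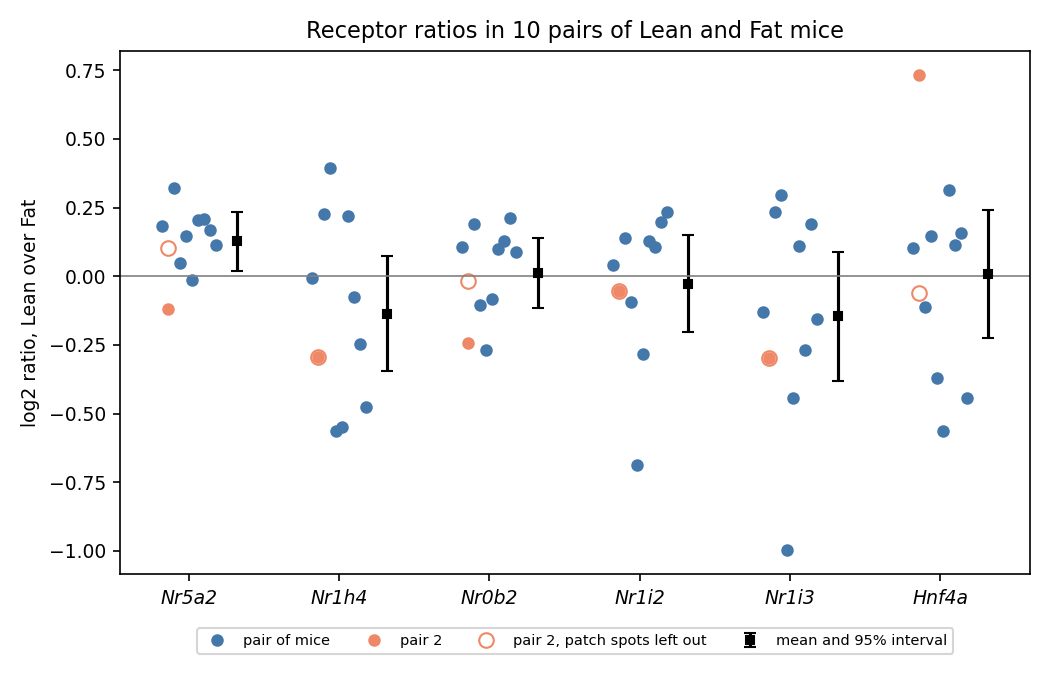
Log2 ratio of Lean over Fat (vertical axis) for each receptor in the 10 pairs of mice (filled points, pair 2 in orange), with the mean and its 95% interval (squares). Open circles give pair 2 without the spots in the bright patch, which moved its Hnf4a ratio to -0.060, against 0.73 with them.

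FXR, encoded by Nr1h4, is the main bile acid sensor of the hepatocyte. Its pair ratios had a lowest value of -0.56, a median of -0.16 and a highest value of 0.39. Lean was below Fat in 7 of the 10 pairs, and values on both sides of 0 overlapped widely. The mean log2 ratio was -0.14 ± 0.34 (SD, n = 10), a fold of 0.910 with a 95% interval of 0.787 to 1.05 (limma, p = 0.184, adjusted p = 0.577). An exact two-sided sign-flip permutation test over the 10 pairs gave p = 0.234. Its probe was above background in both lines on all 17 arrays. The direction was not kept under median centring, at 0.052, or on the arrays with Lean in Cy3 alone, at 0.083.

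SHP, encoded by Nr0b2, is induced by FXR and represses LRH-1 and HNF4A. In humans and mice its gene is also a target of LRH-1, and it is shown here because 2 of the receptors described act on it. Its RefSeq promoter of 300 bases (GRCm38.p6, chr4:133553126-133553425, plus strand, from 250 bases before to 50 after the start) held the LRH-1 core motif TCAAGG at positions -68 and -35 relative to the start, in capitals below.
Nr0b2: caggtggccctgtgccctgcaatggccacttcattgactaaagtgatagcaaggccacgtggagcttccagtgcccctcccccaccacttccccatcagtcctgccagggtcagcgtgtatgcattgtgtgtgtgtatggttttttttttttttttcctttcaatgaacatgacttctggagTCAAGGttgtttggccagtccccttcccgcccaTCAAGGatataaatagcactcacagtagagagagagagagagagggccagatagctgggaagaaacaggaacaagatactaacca
The motif was searched on both strands and occurred in 14.4% of 32851 mouse promoters of that length, so a match describes letters and not a bound site. Its last letters AGG can also begin the nuclear receptor half-site AGGTCA, which 16.3% of the promoters held.

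Signal for Nr0b2 was low. Its probe was above background on 7 of 17 arrays in Lean and on 10 in Fat, and on 6 in both. The net signal had a median of 1.84 SD of the background in Lean and 2.21 SD in Fat. The pair ratios ran from -0.27 to 0.21 with a median of 0.093, and Lean was above Fat in 6 pairs and below in 4. The mean log2 ratio was 0.013 ± 0.17 (SD, n = 10), a fold of 1.01 with a 95% interval of 0.924 to 1.10 (limma, adjusted p = 0.907; exact sign-flip permutation p = 0.818). Without the spots in the patch it was 0.036 (limma, adjusted p = 0.776). The offset of the background correction is added to both channels before normalization and is large beside the signal of a dim probe. With plain subtraction the mean was 0.21 (limma, adjusted p = 0.626), and the part of the offset in this was not tested.

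LRH-1, encoded by Nr5a2, activates genes of bile acid synthesis and cholesterol export in the liver and is held back by SHP. In pairs 1 to 5 its log2 ratio was 0.18, -0.12, 0.32, 0.049 and 0.15, and in pairs 6 to 10 it was -0.012, 0.21, 0.21, 0.17 and 0.11. Lean was above Fat in 8 of the 10 pairs, and of the 2 pairs below, pair 2 holds the array with the bright patch. The mean log2 ratio was 0.13 ± 0.13 (SD, n = 10), a fold of 1.09 with a 95% interval of 1.01 to 1.18 (limma, p = 0.0248, adjusted p = 0.239). The exact two-sided sign-flip permutation test gave p = 0.0156, where the smallest p that 10 pairs allow is 0.00195. Its probe was above background in both lines on all 17 arrays, with a median net signal of 12.9 SD of the background in Lean and 8.75 SD in Fat.

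Without the spots in the patch the Nr5a2 ratio of pair 2 was 0.10, Lean was then above Fat in 9 of the 10 pairs, and the mean was 0.15 (limma, p = 0.00391, adjusted p = 0.0740). Without that array altogether the mean was 0.16 (limma, adjusted p = 0.0520). The sign of the Nr5a2 mean was the same in all 33 alternative settings, from 0.10 to 0.25, and the adjusted p ranged from 0.0168 to 0.956. It passed the threshold in 3 of them: in the deposited table of normalized ratios at 0.25 (limma over pairs, adjusted p = 0.0264) and at 0.24 with the methods' t-test over its arrays (adjusted p = 0.0168), and with array weights at 0.16 (limma, adjusted p = 0.0341).

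**Figure D2:**
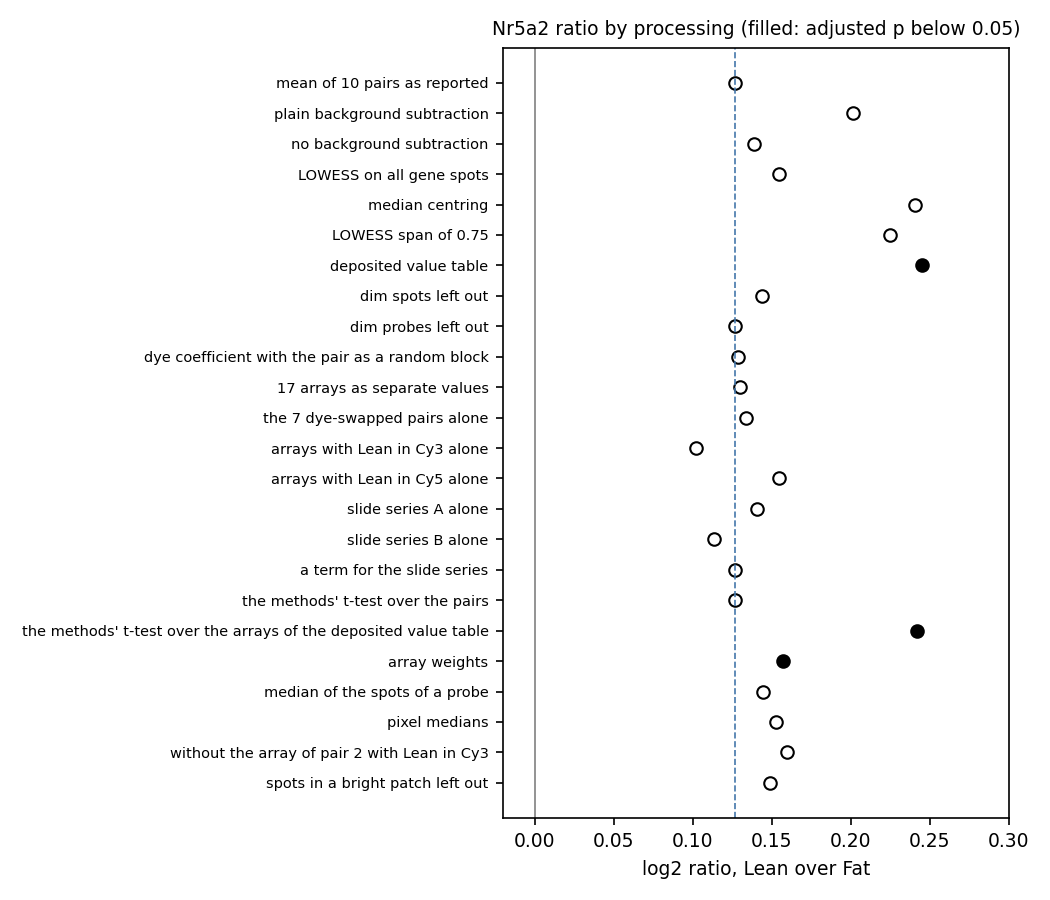
Mean log2 ratio of Nr5a2, Lean over Fat (horizontal axis), under each way of processing (rows), with filled points at an adjusted p below 0.05 and the reported mean of 0.13 as a dashed line. All points lie above 0, and 3 are filled.

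HNF4A holds up the expression of many hepatocyte genes and is one of the activators of Cyp8b1. Its pair ratios had a lowest value of -0.56 and a median of 0.11, and the highest, 0.73, was that of pair 2 with the bright patch. Lean was above Fat in 6 pairs and below in 4. The mean log2 ratio was 0.0082 ± 0.39 (SD, n = 10), a fold of 1.01 with a 95% interval of 0.855 to 1.18 (limma, adjusted p = 0.964; exact sign-flip permutation p = 0.943). Without the spots in the patch the mean was -0.071 (limma, adjusted p = 0.727), so its sign rested on them. The probe was above background in both lines on all 17 arrays.

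PXR, encoded by Nr1i2, is a receptor for many drugs and for some bile acids. Its pair ratios ran from -0.69 in pair 5 to 0.23 in pair 10, with a median of 0.074. Lean was above Fat in 6 pairs and below in 4, and pair 5 lay far below the next value, -0.28 in pair 6. The mean log2 ratio was -0.027 ± 0.28 (SD, n = 10), a fold of 0.981 with a 95% interval of 0.868 to 1.11 (limma, adjusted p = 0.866; exact sign-flip permutation p = 0.820). Without pair 5 the mean was 0.046 and without pair 6 it was 0.0015, so its sign turned without either pair. The probe was above background on 12 arrays in Lean, 13 in Fat and 9 in both.

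CAR, encoded by Nr1i3, induces the Cyp2b enzymes and moves to the nucleus when activated, a step that no RNA level measures. Its pair ratios ran from -0.997 in pair 5 to 0.30 in pair 4, with a median of -0.14. Lean was below Fat in 6 pairs and above in 4, and the next lowest pair, pair 6, had -0.44. The mean log2 ratio was -0.15 ± 0.39 (SD, n = 10), a fold of 0.904 with a 95% interval of 0.768 to 1.06 (limma, p = 0.202, adjusted p = 0.584; exact sign-flip permutation p = 0.281). Without pair 5 the mean was -0.051 (limma, adjusted p = 0.690). Both arrays of pair 5 gave low values, -1.04 with Lean in Cy3 and -0.95 with Lean in Cy5. The probe was above background in both lines on all 17 arrays.

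**Figure D3:**
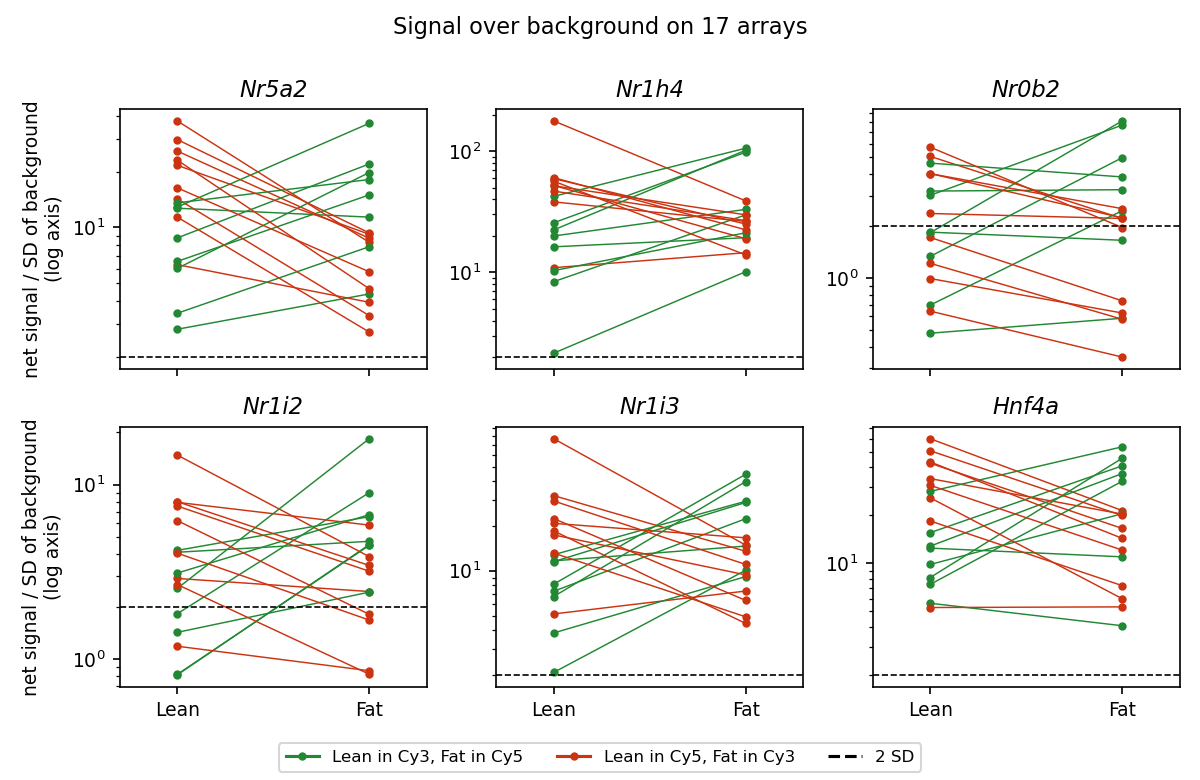
Net signal of each receptor as a multiple of the SD of the local background (log axis) in Lean and Fat on 17 arrays, with 1 line an array, coloured by the dye of Lean, and the limit of 2 SD dashed. On most arrays the line rises towards the channel labelled with Cy5, and Nr0b2 and Nr1i2 lie around the limit.

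The spread of the ratios was larger between arrays and between pairs than between spots of an array. The 3 spots of a receptor on 1 array had a median SD of 0.036 for Nr1i3 to 0.056 for Nr1h4. The 2 arrays of a dye-swapped pair differed by a median of 0.26 for Hnf4a to 0.52 for Nr1h4, and the SD over pairs was 0.13 for Nr5a2 and 0.17 to 0.39 for the other receptors.

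The mean ratios also differed between the dye orientations. In the 7 dye-swapped pairs the Nr1h4 log2 ratio averaged -0.33 with Lean in Cy5 and 0.038 with Lean in Cy3, a difference of -0.37 ± 0.39 (SD, n = 7, exact sign-flip permutation p = 0.0469, adjusted p = 0.164 over the 6 receptors). The difference was -0.47 for Hnf4a, 0.38 for Nr0b2, 0.37 for Nr1i2, -0.16 for Nr1i3 and 0.049 for Nr5a2. None passed after adjustment, with adjusted p from 0.164 to 0.75, and the smallest p that 7 pairs allow is 0.0156. A single receptor at that p could not have passed after adjustment over the 6, so this test could hardly detect a dye difference. Over all probes the median difference was 0.20, and 64.8% of probes were above 0. The arrays also came from 2 series of slide numbers with 5 pairs each. The Hnf4a ratio averaged 0.10 in series A and -0.086 in series B (difference 0.19, limma, adjusted p = 0.934), and Nr5a2 averaged 0.14 in series A and 0.11 in series B (difference 0.027, limma, adjusted p = 0.971). Of the 284 probes, 0% differed between the slide series at an adjusted p below 0.05, and none of the 6 receptors did.

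Whether the receptors varied together across pairs was examined for all 15 combinations. Nr1h4 and Nr1i3 had Pearson's r = 0.77 (permutation p = 0.00634, adjusted p = 0.0475) and Spearman's rho = 0.88 (permutation p = 0.00131, adjusted p = 0.0196) over the 10 pairs. Pairs 3, 4 and 7 were high for both and pairs 5 and 6 low for both. Without pairs 4 and 5, the farthest from the Nr1h4 median, r was 0.67 (permutation p = 0.0747), so passing the threshold rested on them. Nr0b2 and Nr1i2 had r = 0.81 (permutation p = 0.00298, adjusted p = 0.0447) and rho = 0.73 (permutation p = 0.0206, adjusted p = 0.103). Without pairs 2 and 5 their r was 0.84 (permutation p = 0.0148). Both are the dim probes, and the relation was not kept when arrays were scaled on their genes, with r = 0.14 after LOWESS on all gene spots and -0.026 after median centring. The relation of Nr1h4 and Nr1i3 had r = 0.59 (permutation p = 0.0668, adjusted p = 0.334) and 0.93 (permutation p = 0.00038, adjusted p = 0.0057) under these settings.

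Without the spots in the patch 4 combinations passed instead of 2, the further ones being Nr1h4 with Hnf4a (r = 0.77, permutation p = 0.0119, adjusted p = 0.0447) and Nr1i2 with Nr1i3 (r = 0.79, permutation p = 0.0118, adjusted p = 0.0447). The relation of Nr1i2 and Nr1i3 rested on pairs 5 and 6, without which r was 0.025 (permutation p = 0.952).

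With all spots the other 13 combinations did not pass, and over all 15 the median r was 0.40, with 13 above 0. Across all 40186 combinations of gene probes the median r was 0.30, and 22.1% were above 0.60, and all ratios of 1 array share its normalization. Each slide series held 5 pairs, and no correlation was computed over fewer than 6. Nr5a2 with Nr0b2, the activator and its partner, had r = 0.72 (permutation p = 0.0161, adjusted p = 0.0605) and r = 0.55 (permutation p = 0.178) without pairs 2 and 6.

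**Figure D4:**
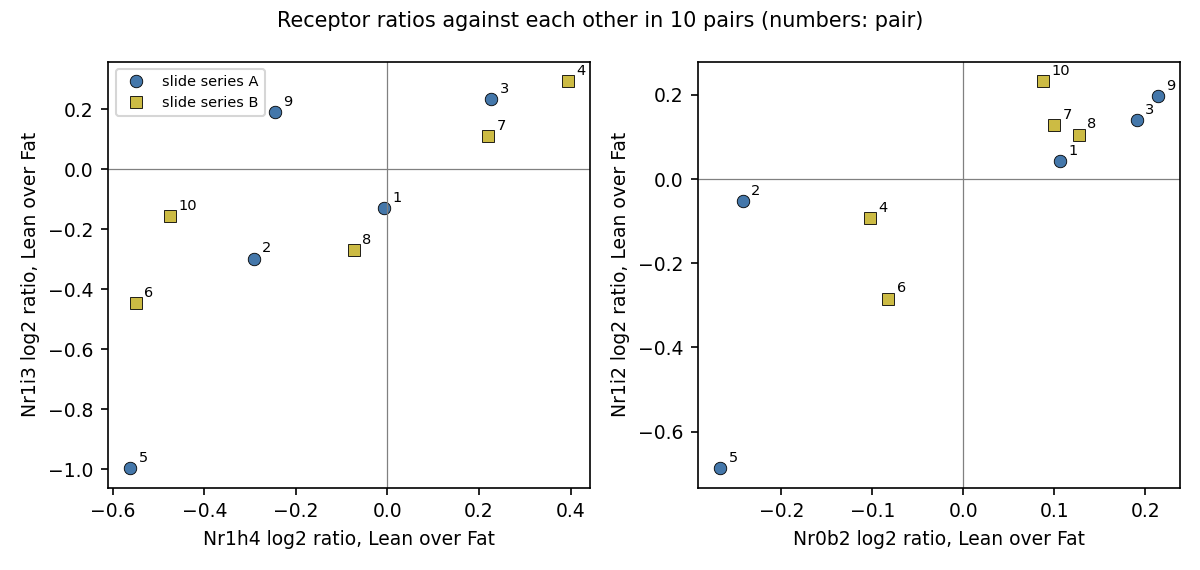
Log2 ratios, Lean over Fat, of Nr1h4 against Nr1i3 and of Nr0b2 against Nr1i2, with 1 point a pair of mice, numbered, and the slide series by colour and shape. Pair 5 is lowest on both axes of both panels.

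Among the 280 other named probes, those most like each receptor by Pearson's r over the 10 pairs are a description. They were Pdhb (r = 0.93) and Cyp2a12 (r = 0.92) for Nr1h4, Irs2 (r = 0.93) and Saa4 (r = 0.90) for Nr0b2, and Jak1 (r = 0.89) and Adipor2 (r = 0.85) for Nr5a2. For Hnf4a they were Abcb4 (r = 0.88) and Cyp4b1 (r = 0.88), for Nr1i2 Hmox1 (r = 0.96) and Rxra (r = 0.95), and for Nr1i3 Abcg5 (r = 0.95) and Adipor1 (r = 0.93). The median r of a receptor with all these probes was 0.26 for Nr1h4 and Hnf4a to 0.51 for Nr1i3.

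The genes with which these receptors act and on which they act were described from lists of known partners and targets. Beside the receptors themselves these lists held 48 genes on 50 probes. Of these probes 3, or 6.0%, passed the test, against 3.52% of all 284 gene probes. Abcb11 and Cyp8b1 were higher in Lean, and Slco1a4 was lower. Of the 3 retinoid X receptors, the dimer partners of FXR, PXR and CAR, none passed, with Rxrb at 0.059, Rxrg at 0.051 and Rxra at -0.0091. The sign of Rxrb rested on pair 2, without which it was -0.020. None of 9 probes for 8 coregulators passed, and the largest were Ppargc1a at 0.12 (limma, adjusted p = 0.541) and Crebbp at 0.076 (limma, adjusted p = 0.577). The other Ppargc1a probe had 0.046 (limma, adjusted p = 0.781).

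Of 10 probes for FXR and SHP targets, 2 were higher in Lean, none was lower and 8 did not pass. Over all probes 2.82% were higher and 0.704% lower. The median log2 ratio of the list was 0.048 against 0.041 over all probes. Abcb11, the bile salt export pump and a classical target of FXR, ranged over pairs from 0.14 to 1.10 with a median of 0.47, and Lean was above Fat in 10 of 10 pairs. Its mean log2 ratio was 0.57 ± 0.31 (SD, n = 10, limma, adjusted p = 0.00187), beside -0.14 for FXR itself. Cyp8b1, the sterol hydroxylase needed for cholic acid and a gene that SHP represses, ranged from 0.15 to 1.06 with a median of 0.51, and Lean was above Fat in 10 of 10 pairs. Its mean was 0.52 ± 0.29 (SD, n = 10, limma, adjusted p = 0.00208). Cyp7a1, the rate-limiting enzyme of bile acid synthesis, had 0.15 (limma, adjusted p = 0.546). Its probe was above background on 10 arrays in Lean and 11 in Fat.

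The promoters of these genes are shown because they were the targets that were higher in Lean. The Abcb11 promoter (RefSeq, GRCm38.p6, chr2:69342567-69342866, minus strand) held the inverted repeat that FXR binds with its partner, in which AGGTCA is followed after 1 base by its reverse complement, with 1 letter different, in capitals below from position -63. The difference is T4C, counted from 1 at the 5′ end of the repeat.
Abcb11: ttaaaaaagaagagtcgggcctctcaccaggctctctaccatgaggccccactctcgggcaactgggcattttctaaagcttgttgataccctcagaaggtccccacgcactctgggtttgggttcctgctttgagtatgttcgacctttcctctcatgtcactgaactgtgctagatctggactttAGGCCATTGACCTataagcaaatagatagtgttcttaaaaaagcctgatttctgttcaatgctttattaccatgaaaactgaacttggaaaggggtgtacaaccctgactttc
With up to 1 letter different, the repeat occurred on either strand in 0.0822% of the 32851 promoters, and its second arm is itself an AGGTCA half-site on the opposite strand. The Cyp8b1 promoter (chr9:121916256-121916555, minus strand) held the HNF4A motif CAAAGTCCA at position -67, a motif found in 0.475% of promoters.
Cyp8b1: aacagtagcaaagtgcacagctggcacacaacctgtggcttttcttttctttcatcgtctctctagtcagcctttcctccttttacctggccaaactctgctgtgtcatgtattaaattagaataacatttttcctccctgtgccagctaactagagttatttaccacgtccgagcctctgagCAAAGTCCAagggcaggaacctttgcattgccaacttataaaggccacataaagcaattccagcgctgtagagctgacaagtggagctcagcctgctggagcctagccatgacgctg
Neither the Cyp8b1 window nor the Abcb11 window held TCAAGG, and of the receptors' own promoters only that of Nr0b2 held it. Only these exact letters were searched, so the absence of TCAAGG does not mean that an LRH-1 site is absent. The Cyp8b1 window held CCAAGG, which differs in the first letter, across the end of its HNF4A motif. The half-site AGGTCA lay in windows of Nr5a2 and Nr1h4. All 6 receptors were matched in the promoter table, and none of their windows held the inverted repeat or the HNF4A motif. The same search gave no match to any of these motifs for Slco1a4, the target that was lower in Lean.

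Over all 284 gene probes 3.52% passed, the share to set beside each list here. Of 7 LRH-1 targets, Cyp8b1 was higher in Lean and 6 did not pass, with Abcg5, a subunit of the sterol exporter of the canalicular membrane, at -0.24 (limma, adjusted p = 0.316). None of 11 LXR targets passed, and their median was 0.071. The largest were Scd1, a fatty acid desaturase, at 0.41 ± 1.04 (SD, n = 10), and Fasn, the fatty acid synthase, at 0.26 ± 0.39 (SD, n = 10). Lean was above Fat for Scd1 in 4 of 10 pairs, with a median of -0.12 and a highest value of 2.57, and without pair 8 its mean was 0.17. Of 16 probes for HNF4A targets, Cyp8b1 was higher in Lean and 15 did not pass, with a median of 0.065. G6Pase, the glucose 6-phosphatase that releases glucose from the liver, had -0.71 ± 0.78 (SD, n = 10, limma, adjusted p = 0.102). Without the spots in the patch it had -0.78 (limma, adjusted p = 0.0337), and it also passed in 10 other settings.

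Targets of CAR and PXR lay mostly on the side of lower levels in Lean. Of 11 probes, 10 had a mean log2 ratio below 0 and 1 above, with a median of -0.24 against 0.041 over all probes, of which 197 of 284 were above 0. Of the 11 probes, 1 passed the test, against 3.52% of all 284 gene probes. Slco1a4, a sinusoidal transporter of bile acids and organic anions and a target of PXR, ranged from -1.15 to -0.046 with a median of -0.52, and Lean was below Fat in 10 of 10 pairs. Its probe was above background on 12 arrays in Lean and 17 in Fat. Its mean was -0.56 ± 0.42 (SD, n = 10, limma, adjusted p = 0.0132), and it did not pass the methods' t-test over the pairs (adjusted p = 0.0738). Cyp2a4, a steroid hydroxylase, had -0.34 (limma, adjusted p = 0.452), Cyp3a11, the classical PXR target, -0.24 (limma, p = 0.0111, adjusted p = 0.196) and Cyp2b10, the classical CAR target, -0.24 (limma, p = 0.0174, adjusted p = 0.214). Signal was low for the Cyp2b probes. Cyp2b10 was above background on 9 arrays in Lean and 14 in Fat, Cyp2b9 on 5 and 12, and Cyp2b13 on 11 and 15. The Cyp2b9, Cyp2b10 and Cyp2b13 transcripts are close copies of each other, so these cDNA probes may share signal and are not independent. The authors state that the Cyp2a and Cyp3a probes cross-react within their families too. The ratios of Cyp2a4 and Cyp3a11 may therefore include related transcripts, and probes of this list are not all independent. The median of the list was below 0 in all 33 settings, between -0.38 and -0.12. The list was chosen with earlier results known and leaves out other drug-metabolism P450 probes of the array. Of those left out, the paper reports Cyp2c69 and Cyp1a2 as higher and Cyp3a41 as lower in Lean. The share of probes below 0 therefore depends on the choice of list.

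**Figure D5:**
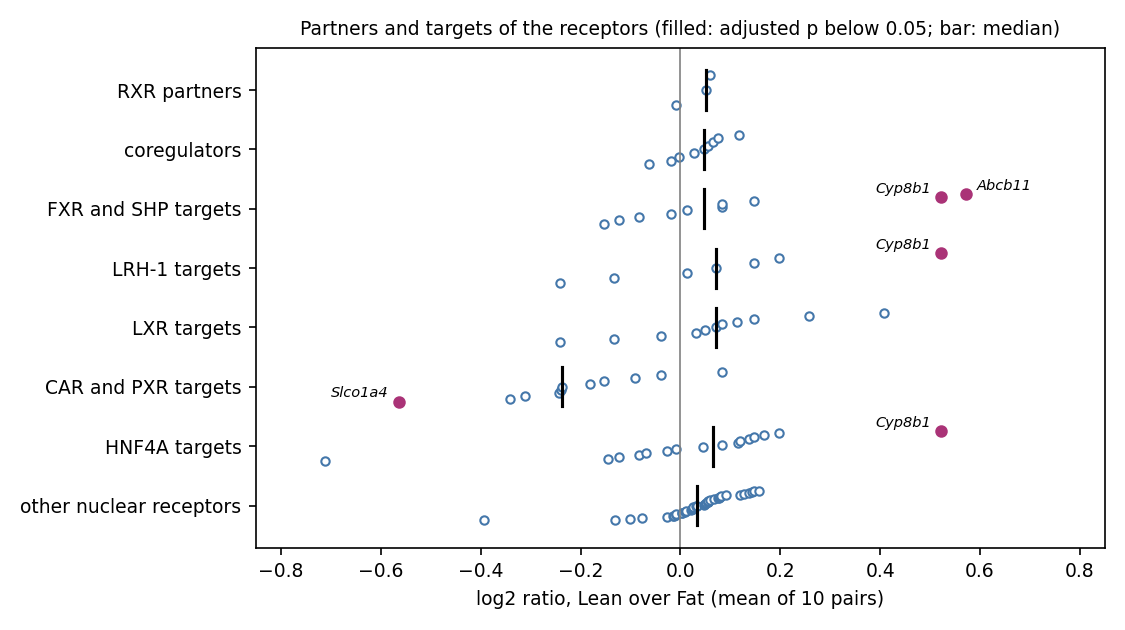
Mean log2 ratio of Lean over Fat (horizontal axis) for each probe of the partner and target lists and of the other nuclear receptors, with filled points at an adjusted p below 0.05 and the median of each list as a bar. The list medians lie between -0.24 for CAR and PXR targets and 0.071 for LRH-1 and LXR targets.

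None of the other 39 nuclear receptors on the array passed the test either, against 3.52% of all 284 gene probes. For groups of 6 and 39 a count of none lies near that share. The 39 had a median of 0.034, with 30 of 39 above 0. Their largest ratios were those of Nr1d2, a repressor of the circadian clock, at -0.39 (limma, adjusted p = 0.389) and Nr3c1, the glucocorticoid receptor, at 0.16 (limma, adjusted p = 0.440). The ratios of the 6 receptors, from -0.15 to 0.13, lay within this range, but its low end was Nr1d2 alone. The next lowest of the 39 was Nr2f2 at -0.131. Nr1i3 at -0.146 and Nr1h4 at -0.136 were thus lower than all of the 39 except Nr1d2.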

How the data were processed

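Array-Pro Analyzer was used by the authors to measure each spot. The deposited intensity values are foreground and local background per channel, before normalization. The deposited log2 ratios were made by the authors in Orange with low-quality spots left out and LOWESS on the spike-in controls, by a filter not given in the sources used here. Each column set beside its array correlated positively with the ratios computed here (0.43 to 0.98).

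Here, mean intensities were background-corrected by normexp (offset 50), normalized by LOWESS (span 0.3) on luciferase and calibration spike-ins, and averaged over spots, then over the arrays of a pair. Mean ratios were tested with limma 3.58.1 in R 4.3.3 over 284 probes (281 with a name, 3 without), with at least 5 pairs, and the fit was tested on simulated data. Relations used 100000 permutations in Python 3.11.15. Levels were not compared between probes. Above background on an array means that the majority of a gene's spots were. The number of arrays limits the precision.

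The members, lists and settings were chosen with earlier results of these data known. The text names every member, the genes of each list that passed or, with fewer than 2, the 2 largest, and the 2 probes most like each member. Cyp7a1, Cyp3a11, Cyp2b10, Rxra, Cyp2b9 and Cyp2b13 were added after their values were seen. The alternatives changed background, normalization, source, dim spots, dye, pairs, test, weights and spots, 30 set beforehand, leaving out each pair in turn among them, and 3 added. Slide series were read from slide numbers. Promoters and gene names came from RefSeq tables (GRCm38.p6).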

Additional observations from a re-analysis of the deposited data

Results flagged for a closer look

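Among 18 groups of receptor ratios (10 pairs, or the arrays of either dye orientation), 1 held a value far from the others: on the array of pair 3 with Lean in Cy5, Nr0b2 had a log2 ratio of 0.66 and the next highest of the 9 such arrays had 0.28. The other array of pair 3, with Lean in Cy3, had -0.28. The median log2 ratio over all probes was 0.55 on the array with Lean in Cy5 and -0.20 on the other. Each of these arrays was thus shifted as a whole on the same side as Nr0b2. By chance about 1 group in 20 would hold such a value.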

How the results depend on the processing

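Nr5a2 kept its sign in all 33 alternatives and none of the receptors passed in most of them. The number of receptors that passed was 1 in the deposited table (Nr5a2, 0.25), with the t-test over its arrays (Nr5a2, 0.24), with array weights (Nr5a2, 0.16) and on the arrays with Lean in Cy5 alone (Nr1h4, -0.34), and 0 in the others. The cause of each change below was not tested. Nr1h4 turned to 0.052 with median centring and 0.083 with Lean in Cy3 alone, and Nr1i3 to 0.019 with median centring. Nr0b2 turned to -0.0042 without background subtraction, -0.032 with LOWESS on all gene spots, -0.11 with median centring, -0.020 with a span of 0.75, -0.0071 with a dye coefficient, -0.0098 in the 7 dye-swapped pairs and -0.19 with Lean in Cy3 alone. Nr1i2 turned to 0.054 without dim spots, 0.12 with Lean in Cy5 alone, 0.018 in slide series B and 0.042 with array weights. Hnf4a turned to -0.063 without background subtraction, -0.010 in the deposited table, -0.018 with the t-test over its arrays, -0.071 without dim spots or without patch spots, -0.19 with Lean in Cy5 alone, -0.086 in slide series B, -0.067 with the median of spots and -0.079 without the array with the patch.

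Leaving out 1 pair at a time gave 0.11 to 0.15 for Nr5a2, -0.20 to -0.089 for Nr1h4, -0.0094 to 0.044 for Nr0b2, -0.056 to 0.046 for Nr1i2, -0.19 to -0.051 for Nr1i3 and -0.072 to 0.072 for Hnf4a, with 0 receptors and 3 to 4 partner and target probes that passed. Those probes numbered 6 without background subtraction, 5 with a dye coefficient, 5 with array weights, 14 with Lean in Cy5 alone, 1 in the pairs of slide series A and 0 in those of B, against 3. Over all 284 probes the arrays with Lean in Cy5 alone gave 37 higher and 16 lower, against 8 higher and 2 lower.

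Rxrb turned to -0.022 without background subtraction, -0.017 without dim or patch spots, -0.025 in slide series B, -0.015 without the array with the patch and -0.020 without pair 2, with a range of -0.020 to 0.095 over the pairs left out. Rxrg turned to -0.071 with median centring and -0.15 with Lean in Cy3 alone, the Ppargc1a probe at 0.12 to -0.13 with Lean in Cy5 alone and Scd1 to -0.050 in slide series A. Crebbp turned to -0.017 with median centring, -0.013 in the deposited table, -0.011 with the t-test over its arrays and -0.074 with Lean in Cy3 alone. Abcb11 did not pass in slide series B (0.41), and Cyp8b1 did not with median centring (0.67) or in either slide series (0.54 and 0.51). Slco1a4 did not in either slide series (-0.38 in A and -0.75 in B), with Lean in Cy3 alone (-0.57) or with the t-test over pairs (-0.56). Median centring turned the dye difference of Nr1h4 (0.96), Nr0b2 (-0.42), Nr1i3 (0.67) and Hnf4a (0.62), the slide series difference of Nr1h4 (0.017) and Nr1i3 (0.015), and the r of Nr0b2 with Nr1i2 (-0.026). LOWESS on all gene spots turned the slide series difference of Nr5a2 (-0.032). The median of all probes moved by less than 0.12 in each setting. LOWESS on luciferase alone was not run, since it spanned 9.12% to 17.7% of gene spots on most arrays, and relations were not computed within a slide series, which holds 5 pairs, since a minimum of 6 was set. Every ratio compares the 2 mice of a pair, so the tests are paired throughout. The settings that take arrays as separate values count a dye-swapped pair through both of its arrays.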
